A study of Mus musculus with 18 samples.

Results

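miR-21a-5p and miR-21a-3p are the mature arms of one mouse hairpin, and they are described here across 18 kidney small RNA libraries. They were chosen by name, as the rows of the deposited table called mmu-miR-21a-5p and mmu-miR-21a-3p (the mmu prefix, for mouse, is left out below), and are 2 of its 1184 named entries. Both passed the filter on low counts, with 93654 to 1296681 reads of the 5p arm and 230 to 3152 reads of the 3p arm in a library. Control kidneys (6 libraries) were those of C57BL/6J mice that received 0.9% saline. Kidneys with diabetic nephropathy (DN, 6 libraries) were those of C57BL/KsJ mice, also on 0.9% saline. Treated kidneys (6 libraries) were those of DN mice of the C57BL/KsJ strain that received 10 mg/kg/day of germacrone, which is a sesquiterpene from plants. The labels give no mutation or inducing agent for the DN mice, and no age or sex. Strain differs along with disease, so wherever control libraries enter a comparison, strain and disease cannot be told apart. Whether each library is another animal is not stated in the labels, so a p-value here reflects the spread of these libraries alone, and that spread may be technical. In whole kidney, fewer cells of a type and less RNA per cell also cannot be told apart.

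A microRNA hairpin is cut by Drosha and Dicer into a short duplex. One strand, the guide, is loaded into an Argonaute protein and pairs through its seed, bases 2 to 8, with target messages, while the other strand is mostly degraded. miR-21 is known as an injury and fibrosis microRNA of the kidney: its transcription is driven by AP-1 and STAT3, its processing is raised by TGF-beta signalling, and Pdcd4, Smad7 and Ppara are among its reported targets.

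The sequences are shown because they set which miRNAs could share a seed or reads with miR-21a, and because the base composition of the arms returns below. They are RefSeq mature sequences on GRCm38.p6, 5′ to 3′, with the seed in capitals.
miR-21a-5p: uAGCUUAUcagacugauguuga
miR-21a-3p: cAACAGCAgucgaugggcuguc
miR-21c: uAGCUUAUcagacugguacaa
miR-21b: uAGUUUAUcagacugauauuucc
Both miR-21a arms are 22 bases long, and 36.4% of the bases of the 5p arm are G or C, against 59.1% of the 3p arm. The hairpin lies on the minus strand of chromosome 11 at 86584067 to 86584158, with the 5p arm at 86584120 to 86584141 and the 3p arm at 86584082 to 86584103. GENCODE M21, on the same GRCm38 build, places it inside the exon at the 3′ end of Vmp1 (86583865 to 86585451), an autophagy gene on the same strand, within the stretch annotated as UTR (86583865 to 86585310). For the authors' own mapping, the build was not given in the sources used here.

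Of the 1679 mature mouse miRNAs with a RefSeq sequence, 1 other had the 5p seed, miR-21c, and 0 others had the 3p seed. Counted from the 5′ end of miR-21a-5p, miR-21c carries A16G, G18A, U19C, U20A and G21A, and miR-21b carries C4U, G18A, G21U and A22C, so that its seed differs. Both were at or near 0: their raw values were above 0 in 4 of 18 libraries, with a highest value of 6, and the values listed for the 2 were equal in 18 of 18 libraries. No library listed fewer than 93654 reads of miR-21a-5p beside these.

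Total counts were 3639790 to 7236246 per library, and 619 entries were tested. Some of these entries carry names of other species, and some are repeats of a name with equal fold changes. Each counts separately in the shares over all entries and in the adjustment. Levels are CPM, counts scaled to a common library total, with TMM scaling, a factor per library that balances most entries. DN 2 stood apart, with a median correlation of log2 CPM of 0.896 with the other DN libraries, followed by DN 3 at 0.926 and control 2 with its own group at 0.946, against 0.958 to 0.973 elsewhere. The comparisons of the arms, their ratio and the miRNA lists are also given with 1 or more libraries left out, among them DN 2. As kidney markers, 10 of 10 epithelial miRNAs (among them miR-192-5p, miR-194-5p and miR-204-5p) were listed. Their summed level ran from 127300 to 187800 CPM within the control libraries. The lowest and highest sums were 65930 and 229900 CPM in DN, and 186000 and 251800 in treated libraries. The liver arm miR-122-3p and the cardiac miR-208b-3p were not listed or at 0.

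The 5p arm was among the most abundant miRNAs of these kidneys. In control libraries it was lowest in control 2 at 12700 CPM, had a median of 32330 and was highest in control 6 at 47410. In DN libraries it was lowest in DN 3 at 23140 CPM, had a median of 61880 and was highest in DN 2 at 188600. In treated libraries it was lowest in treated 5 at 39250 CPM, had a median of 68560 and was highest in treated 6 at 122800. So 5 of 6 DN and 5 of 6 treated libraries lay above every control library, and DN 3 and treated 5 lay among the controls.

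**Figure D1:**
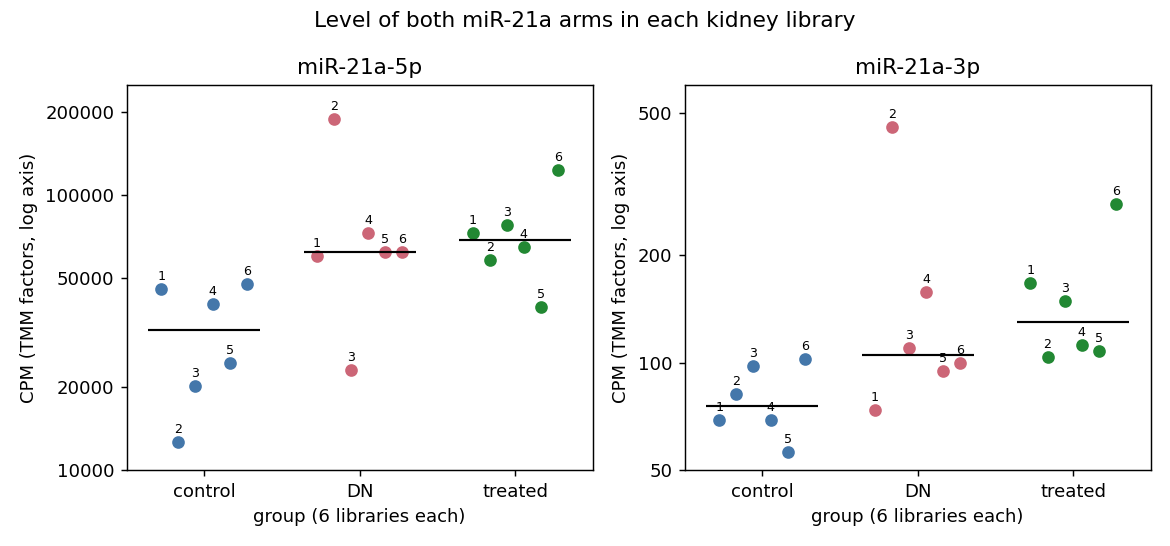
CPM of miR-21a-5p (left) and miR-21a-3p (right) in each library, on log axes; points are libraries, numbered by replicate, and the line is the group median. DN 2 and treated 6 are the highest libraries for both arms, while control 2, control 3 and DN 3 are low for the 5p arm but not for the 3p arm.

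As a share of all named counts, miR-21a-5p took 1.41% to 4.94% of control libraries, 2.46% to 22.6% of DN libraries and 3.51% to 11.7% of treated libraries. In DN 2 the share had a 95% Wilson interval of 22.5% to 22.6%, which covers counting error only. With entries of one name summed, miR-21a-5p ranked first in DN 2 and treated 6, between 2 and 11 in the other DN libraries, between 2 and 8 in the other treated libraries and between 4 and 19 in control. In DN 2 it had 4.66 times the count of the next miRNA, miR-26a-5p, a growth-restraining miRNA, and in treated 6 it had 1.83 times that of miR-30c-5p. The first miRNA elsewhere was miR-30c-5p, abundant in podocytes and tubules, in 13 libraries, its family member miR-30a-5p in 2, control 2 and DN 4, and let-7c-5p in DN 3.

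The 3p arm was far rarer, at 0.122% to 0.641% of the reads of both arms. Its level was lowest in control 5 at 56.1 CPM, with a control median of 75.6 and a highest value of 102.5 in control 6. In DN it ran from 73.6 CPM in DN 1 through a median of 104.9 to 458.5 in DN 2. In treated libraries it ran from 103.9 CPM in treated 2 through a median of 130.4 to 278.5 in treated 6. Each treated library thus lay above each control library, whereas 3 of 6 DN libraries did. The gap between the lowest treated and the highest control library was narrow, and with the share of the library in place of TMM CPM only 3 of 6 treated libraries lay above every control. With the authors' normalized values 6 of 6 did. The spread within control was smaller for the 3p arm, with a coefficient of variation of 22.8% against 45.8% for the 5p arm.

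The first comparison set DN against control kidneys, which differ in strain as well as in disease. The mean of miR-21a-5p was 77990 ± 56790 CPM in DN and 31720 ± 14520 in control (SD, n = 6 each). Its fitted log2 fold change was 1.30 (SE 0.40, 95% interval 0.46 to 2.14, 2.46-fold), with an unadjusted p of 0.00483 and an adjusted p of 0.277 by edgeR's quasi-likelihood test with Benjamini-Hochberg adjustment over 619 entries. The mean of miR-21a-3p was 165.8 ± 146.1 against 79.5 ± 18.1 CPM, with a log2 fold change of 1.06 (SE 0.39, interval 0.25 to 1.87, edgeR adjusted p = 0.439). Neither arm passed the threshold of 0.05, and 0% of all entries did. Both had an unadjusted p under 0.05, as did 7.59% of all entries, 5.17% with DN higher. Both arms had 5 of 6 DN libraries above the control median, and only 19 and 28 of the 619 entries had a larger log2 fold change, while the median over all entries was 0.08.

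Much of the size of these differences came with DN 2. Without it the DN mean of the 5p arm was 55860 ± 18930 CPM (n = 5) and its log2 fold change 0.82 (edgeR adjusted p = 0.266), and the 3p arm was at 107.3 ± 31.3 CPM with a log2 fold change of 0.47 (adjusted p = 0.495). The edgeR unadjusted p was then 0.0254 for the 5p arm and 0.0987 for the 3p arm, so only the 5p arm stayed under 0.05. Leaving out control 2, DN 2 and DN 3 together gave 0.84 and 0.42 (edgeR unadjusted p = 0.00745 and 0.190). Limma-voom, with weights that count libraries less the more they depart from their group, called the 5p arm higher in DN (log2 fold change 1.06, SE 0.26, adjusted p = 0.0135). It called 14.7% of all entries in that comparison, 7.43% with DN higher, and the 3p arm was not among them (0.54, SE 0.26, adjusted p = 0.173).

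The comparison of treated with DN libraries addressed germacrone within one strain. miR-21a-5p was at 72460 ± 28080 CPM in treated and 77990 ± 56790 in DN libraries, with a log2 fold change of −0.11 (SE 0.40, interval −0.94 to 0.73, edgeR adjusted p = 0.986). miR-21a-3p was at 153 ± 66.5 against 165.8 ± 146.1 CPM (log2 fold change −0.12, SE 0.39, interval −0.92 to 0.69, adjusted p = 0.977). Neither arm passed, nor did any other entry (0%). At an unadjusted p under 0.05 neither arm was among the 3.72% of entries that had one, of which 0.808% of all were higher in treated libraries. Without DN 2 both directions turned, to a log2 fold change of 0.37 for the 5p arm (SE 0.34, adjusted p = 0.889) and 0.48 for the 3p arm (SE 0.27, adjusted p = 0.883). The median of the treated libraries was above that of the DN libraries for both arms, at 68560 against 61880 CPM and at 130.4 against 104.9 CPM, although the means were in the other order.

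The comparison of treated with control libraries addressed how far treated DN kidneys were from control kidneys. Here miR-21a-5p had a log2 fold change of 1.19 (SE 0.40, interval 0.35 to 2.03, 2.29-fold, edgeR adjusted p = 0.173) and 6 of 6 treated libraries above the control median. miR-21a-3p had a log2 fold change of 0.95 (SE 0.39, interval 0.14 to 1.75, 1.93-fold, adjusted p = 0.202), and its groups did not overlap in TMM CPM. Groups that do not overlap with treated higher were found for 3.55% of all entries, and 5.17% did not overlap in either direction. No entry (0%) passed the adjusted threshold, and both arms were among the 19.5% with an unadjusted p under 0.05, 10.7% with treated higher. The comparisons share samples: the 2 against control share the control libraries, and the DN libraries stand in both of the others. With edgeR fitted to the treated and control libraries alone, both arms were called higher in treated kidneys (log2 fold change 1.18 and 0.94, adjusted p = 0.0423 for each), among 9.76% of the 574 entries tested there, 4.53% with treated higher. Limma-voom also called both (1.21, adjusted p = 0.00715, and 0.93, adjusted p = 0.0229), among 17.1% of all entries, 10.2% with treated higher. Without control 2, DN 2 and DN 3 the edgeR fit called the 5p arm (1.01, adjusted p = 0.0302) and not the 3p arm (0.93, adjusted p = 0.0502), with 7.86% of 636 entries called and 4.56% called higher. DESeq2 called neither arm (1.16 and 0.90, adjusted p = 0.0926 and 0.179). Leaving out treated 6 gave 1.03 and 0.72 by edgeR, with an unadjusted p of 0.0195 and 0.0845. Leaving out treated 5 gave 1.38 and 1.06 (unadjusted p = 0.00341 and 0.0203). With library size as the only scaling, the 3p arm was at 0.74 (edgeR unadjusted p = 0.1005).

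**Figure D2:**
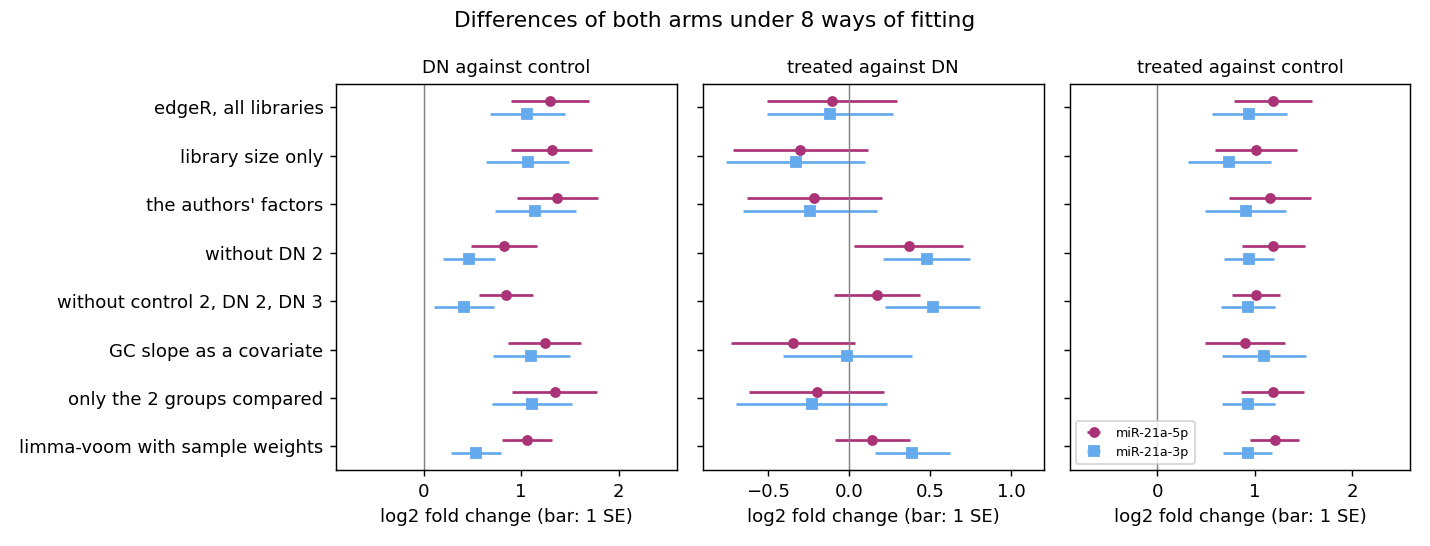
Log2 fold change of both arms in the 3 comparisons under 8 ways of fitting, with bars of 1 standard error. Both arms are above 0 against control under each of the 8, and in treated against DN they change sign without DN 2, without control 2, DN 2 and DN 3, and with limma-voom.

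The ratio of the arms needs no library scaling. It was 155 to 656 reads of 5p per read of 3p in control libraries (416 ± 200, SD, n = 6). In DN it was 210 to 815 (528 ± 213, n = 6), and among treated libraries 365 to 576 (482 ± 82.0, n = 6). The 3p arm made up 0.641% of the reads of both arms in control 2 (95% Wilson interval 0.592% to 0.694%) and 0.122% in DN 1 (0.109% to 0.138%), which were the extremes. The 3 libraries with a ratio under 300 were control 2, control 3 and DN 3, and the ratio in treated libraries varied least.

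The mean log2 ratio was 8.52 ± 0.84 in control, 8.92 ± 0.69 in DN and 8.89 ± 0.25 in treated libraries (SD, n = 6 each). It differed by 0.40 between DN and control (SE 0.34, interval −0.30 to 1.11, limma adjusted p = 0.877 over 129 hairpins with both arms tested). The difference was −0.03 between treated and DN (interval −0.73 to 0.68, adjusted p = 0.955) and 0.38 between treated and control (interval −0.33 to 1.08, adjusted p = 0.476). Single libraries moved these values by more than 1.5 times. The difference between DN and control was 0.15 without control 2, 0.24 without control 3, 0.25 without DN 1 and 0.64 without DN 3 (adjusted p = 0.304 for the last). Between treated and control it was 0.13 without control 2 and 0.21 without control 3. Between treated and DN, already near 0, it ran from −0.27 without DN 3 to 0.12 without DN 1. Without control 2, DN 2 and DN 3 together the 3 differences were 0.52, −0.39 and 0.13 in the order DN against control, treated against DN and treated against control (limma adjusted p = 0.256, 0.992 and 0.769). No hairpin (0%) passed in any of the 3 comparisons with all libraries. The miR-21a ratio overlapped between the groups in each, and the only hairpins whose groups did not overlap were 2.33% in treated against control. Exact 2-sided permutation tests of the miR-21a ratio alone gave p = 0.370, 0.942 and 0.368, and 0.555, 0.942 and 0.555 adjusted over the 3. Among the 129 hairpins miR-21a had the 7th largest mean log2 ratio of 5p over 3p, at 8.78 against a median of 1.33. By the size of the mean log2 ratio in either direction, miR-21a ranked 14. Its SD within groups was 0.65, which ranked 3 among the 22 hairpins whose rarer arm was at least as abundant as miR-21a-3p (median 0.37).

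Across the 18 libraries the arms rose and fell together, with Pearson's r = 0.736 between their log2 CPM (permutation p = 0.00052, 0.00208 adjusted over 4 relations) and Spearman's rho = 0.703 (permutation p = 0.00159, adjusted 0.00636). Both values of a library share its scaling factor. Without DN 2 and control 2, the libraries farthest from the median of the 5p arm, r was 0.65. Within groups r was 0.891 in treated libraries (exact permutation p = 0.0167, adjusted 0.0333; rho = 0.886, exact p = 0.0333, adjusted 0.0667) and 0.737 in DN (exact p = 0.183, adjusted 0.244; rho = 0.6, exact p = 0.242, adjusted 0.322). In control it was −0.045 (exact p = 0.967, adjusted 0.967; rho = 0.143, exact p = 0.803, adjusted 0.803). Without the 2 libraries farthest from the group's median r was 0.892, 0.964 and 0.777 in treated, DN and control libraries (n = 4 each).

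**Figure D3:**
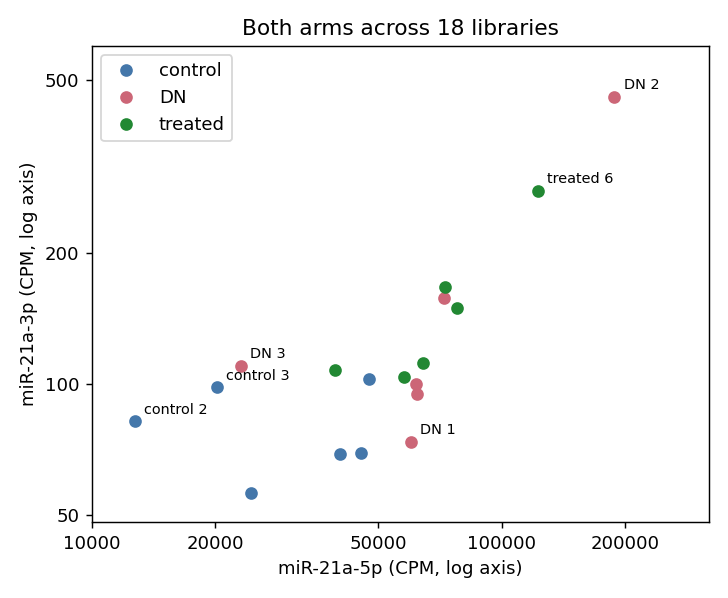
miR-21a-3p against miR-21a-5p in CPM, both on log axes, for the 18 libraries coloured by group. DN 2 and treated 6 lie at the upper right, and control 2, control 3 and DN 3 lie to the left of the other libraries of similar 3p level.

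The libraries with a low ratio of 5p to 3p were those in which miRNAs rich in G and C were high. For each library, the log2 CPM of 276 other mouse miRNAs, relative to their means over all libraries, was regressed on their GC content. These were 84.7% of those at a mean of 10 CPM or more, the ones with a RefSeq sequence. This GC slope, per 10 percentage points of GC, was 0.67 in control 2, 0.49 in DN 3 and 0.26 in control 3, and between −0.26 and 0.14 in the other libraries. Of the 276 miRNAs, 15.2% had a GC content at or below that of miR-21a-5p and 17.8% one at or above that of miR-21a-3p.

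The GC slope was added after seeing the data, so the p-values of its relations describe these libraries and are no planned test. The log2 arm ratio fell with the GC slope, with r = −0.883 over 18 libraries (permutation p = 2e-05, 0.00024 adjusted over 12 relations) and rho = −0.674 (permutation p = 0.00271, adjusted 0.0325). Without control 2 and DN 3, the 2 libraries farthest from the median slope, r was −0.712. Within groups r was −0.888 in control, −0.939 in DN and −0.872 in treated libraries (n = 6 each, exact permutation p = 0.0278, 0.0167 and 0.0333, adjusted 0.0667, 0.05 and 0.0667). The corresponding rho was −0.771, −0.829 and −0.771 (exact p = 0.103, 0.0583 and 0.103, adjusted 0.206, 0.175 and 0.206). Without the 2 libraries farthest from each group's median slope, r was −0.925 in control, −0.441 in DN and −0.563 in treated libraries (n = 4 each).

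The 5p arm itself also fell with the slope (r = −0.659, permutation p = 0.0031, adjusted 0.0186, and rho = −0.48, permutation p = 0.0455, adjusted 0.175). Without control 2 and DN 3 r was −0.331, so much of that relation over all groups came with those libraries. In control libraries alone it was −0.973 (exact permutation p = 0.00833, adjusted 0.0333; rho = −0.943, exact p = 0.0167, adjusted 0.1), and −0.968 without control 2 and control 6. In DN and treated libraries it was −0.414 and −0.128 (exact permutation p = 0.378 and 0.839, adjusted 0.62 and 0.915; rho = 0.0857 and 0.143, exact p = 0.919 and 0.803, adjusted 0.919 for both). Without the 2 farthest libraries these turned to 0.648 and 0.979 (n = 4 each). For the 3p arm r was −0.0752 over all libraries (permutation p = 0.767, adjusted 0.915; rho = −0.129, p = 0.611, adjusted 0.815), and 0.083 without control 2 and DN 3. Within groups it was 0.0298 in control, 0.265 in DN and 0.278 in treated libraries (exact permutation p = 0.994, 0.417 and 0.536).

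**Figure D4:**
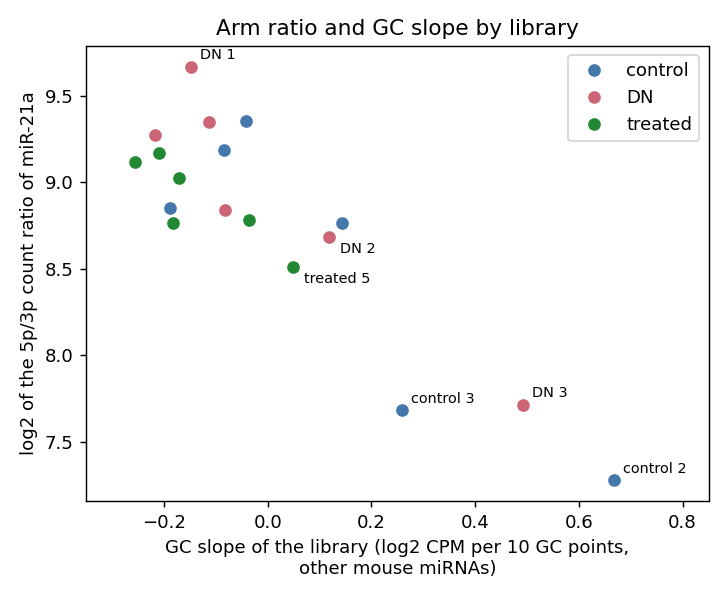
Log2 of the 5p/3p count ratio of miR-21a against the GC slope of the library, the change in log2 CPM of 276 other mouse miRNAs per 10 percentage points of GC. Points are libraries coloured by group; control 2, DN 3 and control 3 have the steepest slopes and the 3 lowest ratios.

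The mean GC slope was 0.13 ± 0.31 in control, 0.01 ± 0.26 in DN and −0.13 ± 0.12 in treated libraries (SD, n = 6 each), and its part in the group differences was examined by one fit. With the slope as a covariate beside the group, the log2 fold change of the 5p arm was 1.24 in DN against control (SE 0.38, edgeR adjusted p = 0.233) and 0.90 in treated against control (SE 0.41, adjusted p = 0.430). That of the 3p arm was 1.11 (SE 0.39, adjusted p = 0.298) and 1.10 (SE 0.43, adjusted p = 0.363). In treated against DN the 5p arm went from −0.11 to −0.34 (SE 0.38, adjusted p = 0.886) and the 3p arm from −0.12 to −0.0090 (SE 0.40, adjusted p = 0.994). The arm ratio in DN against control went from 0.40 to 0.12 (SE 0.16, limma adjusted p = 0.880). The arm ratio in treated against control turned from 0.38 to −0.25 (SE 0.18, limma adjusted p = 0.606) in that fit. In treated against DN it went from −0.03 to −0.37 (SE 0.17, unadjusted p = 0.0376, limma adjusted p = 0.971). The ratio passed in none of the 3 comparisons with the slope in the fit.

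Leukocyte miRNAs, from cells that are known to hold much miR-21 too, had their highest sums in DN 2 and treated 6. These libraries also had the most miR-21a, but the sum of treated 6 rested on miR-146a-5p. All 9 of 9 chosen markers were in the table and 8 were tested. Their summed level was 26010 CPM in DN 2 but 1590 to 2363 CPM elsewhere in DN, and 3176 to 4228 CPM in control. In treated libraries it was 1846 to 3080 CPM, and 9121 in treated 6. The myeloid marker miR-223-3p was at 5097 CPM in DN 2, where the rest of its group had 43.5 to 138.9 CPM, and the lymphocyte marker miR-150-5p at 1330 CPM, where the rest had 73.9 to 132.4. In treated 6 the sum came mostly from miR-146a-5p, which NF-kB induces in many cell types, at 7611 CPM against 793 to 1665 in the other treated libraries. There miR-223-3p was at 197.1 CPM, against 60.2 to 149.1 in the others, and miR-150-5p at 71.1, the lowest of the group. Once miR-146a-5p was left out, the sum of treated 6 was 1510 CPM, within the 1111 to 1717 CPM of control libraries. That of DN 2 was still 14450 CPM. None of the 9 passed in any comparison (0 of 8 tested). Their median log2 fold change was 0.95 in DN against control with 8 of 8 above 0, −1.61 in treated against DN with 0 of 8 above 0, and −0.24 in treated against control with 3 of 8 above 0. Without DN 2 these medians were −0.67, 0.30 and −0.24, with 0, 5 and 3 of 8 above 0, so both signs that rest on the DN group turned. In that fit miR-150-5p passed as lower in DN than in control (log2 fold change −1.21, edgeR adjusted p = 0.0198) and as lower in treated than in control (−1.32, adjusted p = 0.00746). It was the only 1 of the 8 to pass there, where 6 and 7 of all 630 entries were called. The rare strand miR-223-5p was at 0 in 5 control, 4 DN and 5 treated libraries, and miR-342-5p in 2, 2 and 3. The part of leukocyte content in the miR-21a levels was not tested. DN 2 and treated 6 were the highest libraries on both measures, so a view without them is one chosen by the values compared. In that view each DN and treated library had a lower leukocyte sum than each control library. Of these 10 libraries, 8 had more miR-21a-5p than each control. The sums of control libraries were mostly miR-146a-5p, at 52.9% to 70.6%. With miR-146a-5p left out, 9 of the 10 libraries still lay below every control, and treated 3, at 1414 CPM, lay above 5 of 6 controls. Not each member was lower: the treated median exceeded the control median for miR-223-3p (82.8 against 73.5 CPM) and miR-142a-5p (326.4 against 266.8 CPM).

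**Figure D5:**
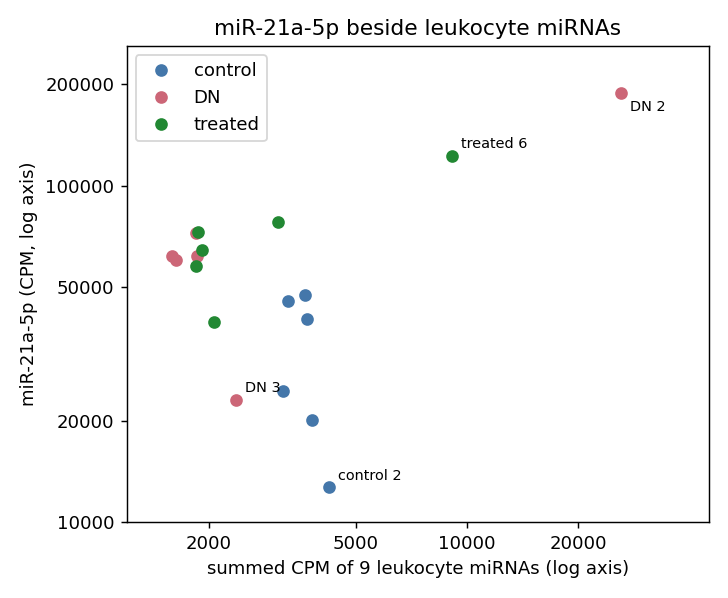
miR-21a-5p in CPM against the summed CPM of 9 leukocyte miRNAs, both on log axes, for the 18 libraries. DN 2 and treated 6 are high on both axes, treated 6 mostly through miR-146a-5p, and the other DN and treated libraries lie to the left of the control libraries.

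Fibroblast and pericyte markers, miR-199a and miR-214, were high in DN 2 as well, at a summed 18220 CPM. The rest of the DN group had 5526 to 6509 CPM, control libraries 4593 to 7426 and treated libraries 6453 to 9080. All 4 of 4 were tested, and their median log2 fold change in DN against control was 0.45, or −0.06 without DN 2. Kidney epithelial markers were lowest in DN 2, at 65930 CPM. With all libraries 0 of 10 passed in any comparison. Their median log2 fold change was then 0.17, 0.21 and 0.51 in DN against control, treated against DN and treated against control. Above 0 were 8, 8 and 9 of the 10. Without DN 2 their median log2 fold change was 0.34 in DN against control, 0.01 in treated against DN and 0.50 in treated against control. Of the 10 members, 10, 5 and 9 were above 0. The tubular miR-204-5p passed there as higher in DN than in control (log2 fold change 1.17, edgeR adjusted p = 0.0187), among 6 of 630 entries called. miR-204-5p and miR-10b-5p passed as higher in treated than in control (0.96 and 0.59, adjusted p = 0.0378 and 0.0493), among 7 of 630. The part of these cell types in the miR-21a levels was not tested either. Of the remaining marker lists, red blood cell (1369 to 5816 CPM), endothelial (8005 to 25970), smooth muscle (22010 to 59650), striated muscle (76.2 to 593.6) and neuroendocrine miRNAs (659 to 2386) had the highest of the 18 libraries elsewhere than in DN 2 or treated 6. The liver miRNA miR-122-5p was at 5.58 to 118 CPM.

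Other miRNAs tied to kidney injury and fibrosis, 22 names drawn up from general knowledge, had 19 tested members, and 0 of 19 passed in either direction in any comparison. Their median log2 fold change was 0.39 in DN against control, against 0.08 over all entries, with 17 of 19 above 0. In treated against DN it was −0.54 against −0.05, with 2 of 19 above 0. Treated against control gave −0.15 against −0.0035, with 8 of 19 above 0, whereas both miR-21a arms were near 1 there. Without DN 2 the list's medians were −0.19 in DN against control, 0.14 in treated against DN and −0.16 in treated against control, with 7, 12 and 8 of 19 above 0. The sign of the list in the first pair of comparisons thus rested on that library. In DN against control without it, miR-21a-5p was at 0.82 (edgeR adjusted p = 0.266) and miR-21a-3p at 0.47 (adjusted p = 0.495). In treated against DN both arms turned sign as the list did, to 0.37 and 0.48. The most abundant members were miR-192-5p, a tubular miRNA that TGF-beta raises in mesangial cells (log2 fold change 0.39 in DN against control and 0.53 in treated against control, edgeR adjusted p = 0.825 and 0.432), miR-199a-3p (0.38 and 0.26, adjusted p = 0.706 and 0.615) and miR-146a-5p (0.22 and −0.09, adjusted p = 0.959 and 0.947). The list shares miR-155-5p, miR-146a-5p, miR-223-3p and miR-142a-3p with the leukocyte markers, and the 4 fibroblast markers are also in it.

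miRNAs induced by STAT3, AP-1 or NF-kB, a group that miR-21 belongs to through its promoter, had 13 tested members, and 0 of 13 passed in any comparison. Their median log2 fold change was 0.28 in DN against control, −0.43 in treated against DN and −0.15 in treated against control. Without DN 2 these were −0.03, 0.26 and −0.16. The most abundant of them were miR-221-3p, which restrains the cell cycle inhibitor p27 (−0.12 in DN against control), miR-146a-5p, and miR-181b-5p, an inhibitor of importin-alpha3 in endothelium (0.14). miRNAs reported to counter fibrosis had 15 of 15 members tested, and 0 passed in any comparison. Their median log2 fold change was −0.0033 in DN against control, 0.21 in treated against DN and 0.19 in treated against control, and 0.10, 0.09 and 0.18 without DN 2. miR-30c-5p, miR-30a-5p and miR-26a-5p, the most abundant of that list, had log2 fold changes of 0.03, 0.09 and −0.09 in DN against control, and 0.48, 0.51 and 0.07 in treated against control.

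Which miRNAs varied most like miR-21a depended on DN 2. Among 326 other mouse entries at 10 CPM or more, those with the largest r with miR-21a-5p in log2 CPM over the 18 libraries were miR-15b-3p (0.862), the entry named mir-653-p5 (0.859), miR-199a-3p (0.844), miR-18a-5p (0.816) and miR-106b-5p (0.808). The median r over the 326 was 0.03. Without DN 2 (17 libraries) the first were the tubular miR-192-5p (0.92), miR-455-5p (0.903), miR-802-3p (0.899), miR-450b-5p (0.889) and miR-340-5p (0.885), and miR-192-5p had only 0.124 with DN 2 included. For miR-21a-3p the first were miR-146b-5p (0.823), an inflammation-induced miRNA, miR-132-5p (0.758), miR-199b-5p and miR-199a-5p (0.754 each, with equal values in the table) and miR-130b-3p (0.742). Without DN 2 they were miR-148b-5p (0.71), miR-375-3p (0.675), miR-335-3p (0.669), miR-363-3p (0.666) and miR-27b-5p (0.659). These coefficients describe 18 or 17 libraries that share scaling, depth and base composition effects within each library.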

How the data were processed

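Small RNA of mouse kidney was compared over 18 libraries in 3 groups of 6. Per the labels' protocols, RNA was extracted with Trizol, libraries were made with a TruSeq Small RNA kit, and ACGT101-miR took out repeats, junk, adapter dimers and other RNA classes. The tools named in the submitters' processing notes are Trimmomatic 0.32, BWA, SAMtools and edgeR. The raw columns deposited by the authors hold estimated counts (76.9% of values above 0 were whole), rounded here to whole numbers. The deposited normalized columns hold a signal: each library's raw values multiplied by a constant between 0.6644 and 1.427. The 350 unnamed entries (0.0136% to 0.148% of counts) were left out.

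edgeR 4.0.16 (R 4.3.3) was fitted to all 18 libraries with group as the factor: filterByExpr (minimum count 10, minimum total 15), TMM factors, the 2-sided legacy quasi-likelihood test, Benjamini-Hochberg adjustment over 619 entries and a threshold of 0.05. log2 CPM used a prior count of 2. Arm ratios, log2((5p + 0.5)/(3p + 0.5)), were tested with limma 3.58.1 (trend on the rarer arm) over 129 hairpins. DESeq2 1.42.0 was an alternative. Both fits were also run on simulated counts without an outlying library. The simulated spread for edgeR was below that of these libraries (biological coefficient of variation 0.5). That run therefore does not show how the fits perform with a library such as DN 2. The replicate numbers were not used to pair libraries. Intervals of shares cover counting error only.

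The members and lists were chosen with earlier results of these data known. The named miRNAs are the 2 arms, their seed sharers and near copies, the 5 most alike by Pearson's r, and the 3 most abundant members of a list. The GC slope, its fit and the authors' factors as scaling were added after seeing the data, as were the lists and likeness without DN 2, the leukocyte sum without miR-146a-5p and single markers named beside a list.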

Additional observations from a re-analysis of the deposited data

Results flagged for a closer look

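DN 2 lay far from the other DN libraries for both arms. miR-21a-5p was at 188600 CPM there, against 72390 in the next DN library, and made up 22.6% of the library, against 6.56%. miR-21a-3p was at 458.5 CPM, against 158 in the next, and made up 0.0549% of the library, against 0.0143%. In treated 6, miR-21a-3p was at 278.5 CPM, against 167.2 in the next treated library. In each case the gap to the nearest library took up more of the range of its group of 6 than Dixon's 95% critical value. Chance alone does this in about 1 in 20 groups, and 18 groups were examined over 6 measures that are not independent of each other.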

How the results depend on the processing

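Alternatives numbered 31 for each arm and comparison and 24 for the arm ratio. Against control both arms stayed above 0 in all of them, with log2 fold changes of 0.82 to 1.52 (5p) and 0.42 to 1.30 (3p) in DN, and 0.90 to 1.38 and 0.72 to 1.10 in treated libraries; leaving out 1 library gave 0.82 to 1.52, 0.47 to 1.30, 1.03 to 1.38 and 0.72 to 1.08. The 5p arm passed in DN against control with limma-voom (1.06), and in treated against control with limma-voom (1.21), the 2 groups alone (1.18) and without control 2, DN 2 and DN 3 together (1.01). The 3p arm passed in treated against control with limma-voom (0.93) and the 2 groups alone (0.94). In treated against DN, neither arm passed: leaving out 1 library gave −0.36 to 0.37 (5p) and −0.42 to 0.48 (3p), and the sign turned with limma-voom (0.14 and 0.39) and without the 3 libraries (0.17 and 0.52). The cause was not tested. With 1 library left out, arm ratio differences were 0.15 to 0.64 in DN against control, −0.27 to 0.12 in treated against DN and 0.13 to 0.54 in treated against control. The last turned to −0.25 with the GC slope.

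With edgeR's quasi-likelihood method 0 of 619 entries were called in each comparison, with 47, 23 and 121 at an unadjusted p under 0.05. In DN against control, 91 were called with limma-voom, 4 with DESeq2, 6 with the edgeR 4 method, 2 at 10 CPM in 6 libraries, 2 with the GC slope, 51 without the 3 libraries and 0 to 6 with 1 left out. In treated against control the counts were 106 with limma-voom, 18 with DESeq2, 3 with the edgeR 4 method, 56 with the 2 groups alone, 3 with the GC slope, 50 without the 3 libraries and 0 to 7 with 1 left out. Treated against DN gave 0 throughout. Library size only moved the median of all entries to −0.19 in treated against DN and −0.20 in treated against control; relative to it the 5p arm was at −0.10 and 1.22. The correlation of the arms was 0.603 to 0.777 and that of GC slope and arm ratio −0.905 to −0.712 over 21 alternatives each.

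The labels do not say whether equal replicate numbers mark a shared animal, batch or day. Among same-numbered pairs 3 of 18 correlated above 0.1, each of DN with control (0.132, 0.164 and 0.262). The best match had the same number in 1 of 36 cases. Low correlations cannot show that no batch or day was shared. With the replicate number as a block, 0 entries were called in each comparison, and the 3p arm in treated against DN was at 0.066. Depth limits the 3p arm, at 230 to 3152 reads a library, more than the 5p arm.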
